A study of Mus musculus with 16 samples.

Results

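The 40 genes described here are those of striated skeletal muscle, read in retroperitoneal fat of mice: the sarcomeric myosins, troponins and actins, the calcium-handling proteins, the muscle energy enzymes and the muscle transcription factors. A gene was included by its name, through the probe sets (groups of short probes on the array) that carry its symbol alone, and all 40 of 40 genes were found on the array, among 8251 genes with a named probe set. Of the 40, 14 had more than 1 probe set, and the brightest of them by mean log2 signal stood for the gene. The study asked how adipose tissue responds to dihydrotestosterone (DHT), a strong natural androgen. All mice were gonadectomised, so that the controls also lacked their gonads. The 16 arrays split evenly between males (8) and females (8). Each sex had 2 arrays of vehicle controls and 1 array for each of 6 intervals between a subcutaneous injection of 0.1 mg DHT and killing, early ones of 1, 3 and 6 h and late ones of 12, 18 and 24 h. The labels give no strain or age. Fat was taken from every mouse in a group, per the labels' protocols, and each array may therefore be a pool. Whether the 2 vehicle arrays within a sex stand for different mice is not said. The p-values below therefore measure only how these samples differ among themselves, and that spread may be technical.

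Skeletal muscle fibres are long multinucleate cells packed with sarcomeres, in which myosin heads pull on actin once calcium has bound the troponins. Fast fibres and slow fibres carry different copies of the myosin, troponin, calsequestrin and calcium pump genes, and fast fibres draw more on glycogen and glycolysis, slow fibres more on oxidation and stored oxygen. White fat such as the retroperitoneal depot, which lies behind the abdominal cavity, has adipocytes, vessels and immune cells but no sarcomeres of its own. In bulk tissue, fewer cells of a type and less RNA per cell cannot be told apart.

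The control regions of these genes are known for the E-box bound by the MyoD family, for the MEF2 site and for the CArG box bound by serum response factor. RefSeq promoter windows (GRCm38.p6, 250 bases before to 50 bases after the annotated start) were matched by symbol for 33 of the 40 genes and for 27025 genes in all. Where a gene had several annotated starts, as 6 of the 33 did, only the first listed was used. Both strands were searched. The general E-box CANNTG lay in 29 of the 33 muscle windows (87.9%) and in 72.1% of all windows. Its form CAGCTG, which is also counted within CANNTG, lay in 18 of the 33 (54.5%) against 16.1% of all windows. The MEF2 site was searched only as YTAWWWWTAR, where Y is C or T, W is A or T and R is A or G. It was found in 5 of 33 muscle windows and in 3.26% of all windows, and a CArG box in 4 of 33 and in 1.57%. The TATA sequence TATAAA was found in 9 of 33 and in 14.2% of all windows. A match is a description of the letters only, and windows without one are not evidence about any factor. The 4 windows below show what was counted, for the fast myosin Myh4, which holds all of these muscle elements, the slow light chain Myl3, whose ratio was the highest of the 40 on the array described next, the glycogen phosphorylase Pygm, which had the largest difference among the 9 muscle genes called between the sexes, and the transcription factor Myog, whose level did not stand apart on that array. They run 5′ to 3′, and capitals mark CAGCTG, a MEF2 site or a CArG box.
Myh4, chr11:67237562-67237861, + strand: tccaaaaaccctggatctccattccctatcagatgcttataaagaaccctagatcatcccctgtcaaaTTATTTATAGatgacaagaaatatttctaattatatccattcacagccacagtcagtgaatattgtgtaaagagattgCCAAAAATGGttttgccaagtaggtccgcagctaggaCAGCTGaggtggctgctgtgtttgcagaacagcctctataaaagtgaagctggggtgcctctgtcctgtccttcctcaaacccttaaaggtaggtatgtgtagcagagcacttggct
Myl3, chr9:110763428-110763727, + strand: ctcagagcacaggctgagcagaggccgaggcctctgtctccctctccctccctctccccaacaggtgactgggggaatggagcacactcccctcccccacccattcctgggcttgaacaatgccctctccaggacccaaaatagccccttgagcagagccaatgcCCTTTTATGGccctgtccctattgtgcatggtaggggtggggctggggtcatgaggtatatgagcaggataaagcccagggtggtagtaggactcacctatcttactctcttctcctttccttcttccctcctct
Pygm, chr19:6384158-6384457, + strand: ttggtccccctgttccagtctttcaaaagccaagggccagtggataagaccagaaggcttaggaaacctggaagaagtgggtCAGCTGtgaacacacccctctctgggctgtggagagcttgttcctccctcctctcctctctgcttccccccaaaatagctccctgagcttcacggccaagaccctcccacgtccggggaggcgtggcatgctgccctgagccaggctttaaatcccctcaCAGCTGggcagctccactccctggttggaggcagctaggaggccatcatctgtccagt
Myog, chr1:134289754-134290053, + strand: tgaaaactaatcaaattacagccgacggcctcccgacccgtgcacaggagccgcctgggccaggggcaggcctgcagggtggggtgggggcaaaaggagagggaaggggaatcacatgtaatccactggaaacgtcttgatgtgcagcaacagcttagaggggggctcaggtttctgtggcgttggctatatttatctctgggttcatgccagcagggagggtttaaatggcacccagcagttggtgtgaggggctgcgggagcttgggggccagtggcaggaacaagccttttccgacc
The Myh4 window holds a MEF2 site, a CArG box and 1 CAGCTG. The Pygm window holds 2 CAGCTG and the Myl3 window a CArG box. The Myog window holds 2 E-boxes of the general form with none of the marked elements as spelled here. Its stretch ctatatttat departs from the MEF2 spelling in the last base only.

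One array stood apart in these genes, the second vehicle array of the males, and it is described before any comparison. On male vehicle replicate 2 the skeletal muscle genes read a median of 11.8 times their mean over the other 15 arrays, with single genes between 1.19 and 63.4 times. The median over all 8251 genes was 0.94. Of the 40 muscle genes, 37 were higher on this array than on each of the other 15, where 24.6% of all genes were, and 37 were at least 2-fold above the mean of the 15, where 14.9% of all genes were. In 28 genes the ratio was at least 5-fold and in 24 at least 10-fold. Their summed signal was 499229 on this array and 28256 to 84118 on the other 15, with a median of 50544. This is 1 array, named as apart when the genes were chosen, so that the values are a description with no test. The signals are linear intensities that the authors made with MAS5 and scaled to the same trimmed mean on every array, so that each level is relative to its whole array. Signals of different genes are not compared with each other as amounts, since probe sets differ in brightness.

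**Figure D1:**
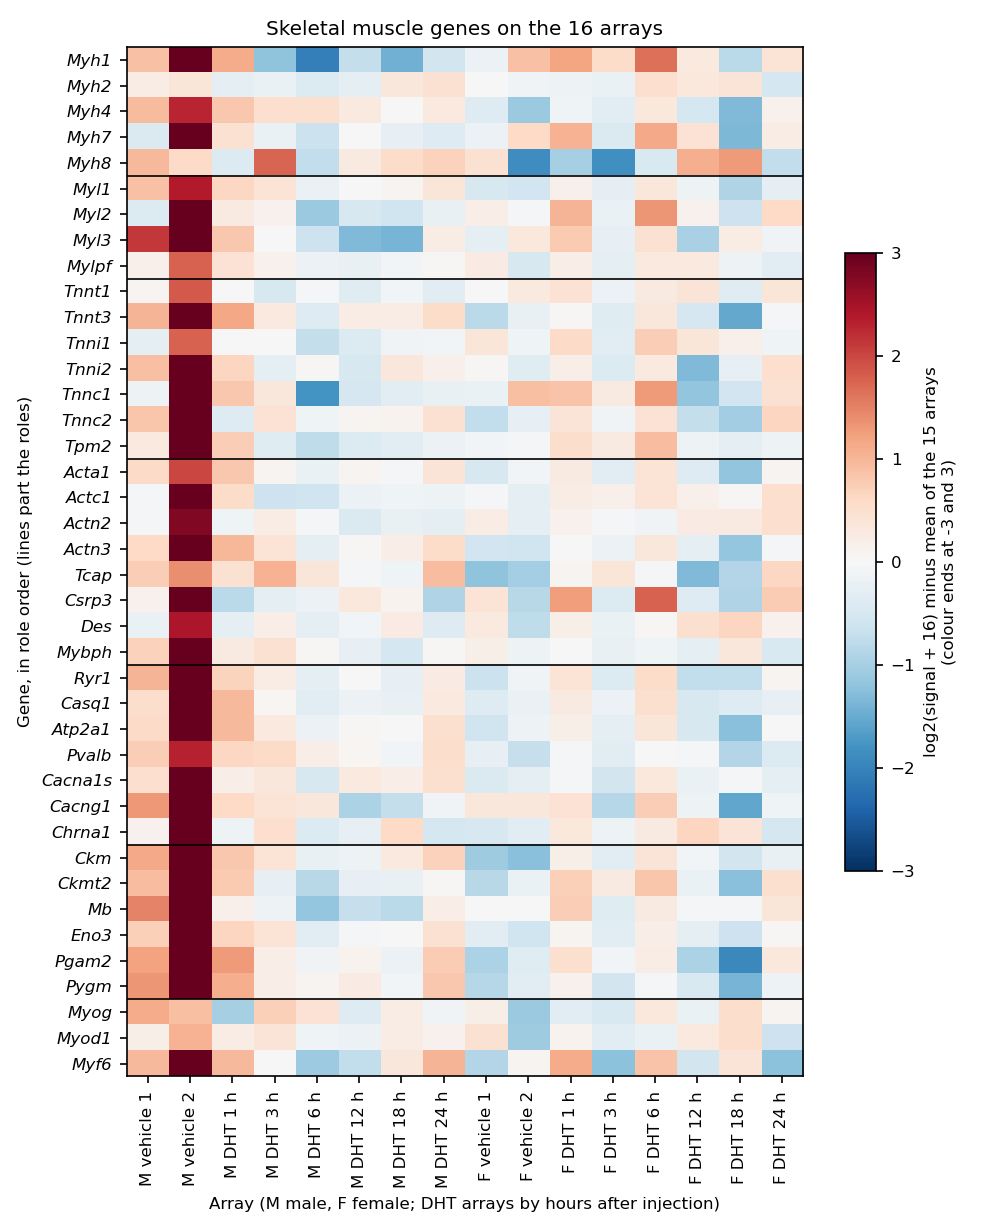
The 40 skeletal muscle genes (rows, in role order) on the 16 arrays (columns, males then females), as log2(signal + 16) minus the mean of the 15 arrays other than male vehicle replicate 2; the colour scale ends at -3 and 3. The column of male vehicle replicate 2 is red in nearly every row, though paler in rows with lower ratios such as Tcap and Myod1. The other columns differ by less, and the 3 rows Myh2, Myh8 and Myog show no such excess.

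Among the myosin heavy chains, the motors of the thick filament, the excess differed widely, from 1.19 to 26.2 times with a median of 4.49. Myh1, of the fast IIx fibres, read 13263 on male vehicle replicate 2 against 83.0 at the lowest, 484 at the median and 1268 at the highest of the other 15 arrays, a ratio of 26.2 to their mean. Myh4, of the fastest IIb fibres, read 32540 there and 2635, 7276 and 12863 at the lowest, median and highest of the others, a ratio of 4.49. Myh7, the slow and cardiac heavy chain, read 3240 there against 85.4, 210 and 545, a ratio of 12.2. Myh2, of IIa fibres, read 20.1 there within the 3.38 to 23.2 of the others, and the perinatal Myh8 read 83.4 within 2.50 to 210. Both of these lay under the signal of 115.53 that was set as the lower limit for testing, on the array that stood apart as well.

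The myosin light chains sit on the neck of the motor, and all 4 were higher on this array than on each of the others, with a median ratio of 10.5. Myl3, the slow and ventricular essential light chain, had the highest ratio, though on a dim base. Its level on the other arrays lay under the limit set for testing, as that of 9 of the 40 genes did, so that the size of such ratios is loosely fixed. It read 3728 there and 7.14, 45.9 and 251 at the lowest, median and highest of the other 15, or 63.4 times their mean of 58.9. The slow regulatory chain Myl2 read 6077 against 150 to 878, a ratio of 16. The fast chain Myl1 read 35497 against 3631 to 12517, a ratio of 4.95, and the fast regulatory chain Mylpf 2574 against 528 to 1006, a ratio of 3.41. No overlap with the other 15 arrays was left in any light chain.

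The troponins, which hold the thin filament off until calcium binds, and the tropomyosin Tpm2 that runs along it were all higher than on each other array. Of these 7, the fast Tnnt3 had the highest ratio, 25.7, with 35005 there and 418, 1257 and 2777 at the lowest, median and highest of the others. Tpm2 read 14002 against 514 to 1703, a ratio of 15.03. The fast inhibitory subunit Tnni2 read 2401 against 69.4 to 385, a ratio of 11.4, and the fast calcium-binding subunit Tnnc2 17335 against 819 to 3040, a ratio of 9.59. The slow and cardiac Tnnc1 read 1408 against 20.4 to 292, a ratio of 10.8. The slow subunits Tnnt1 and Tnni1 had the lowest ratios of this role, 3.73 and 3.36. Their signals there were 692 and 2600, above highest values of 251 and 1265 elsewhere.

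Among the actins, the Z disc proteins that anchor them and the myosin-binding Mybph, all 8 were above each other array, with a median ratio of 9.61. Csrp3, the muscle LIM protein, read 1402 there against 26.8, 54.5 and 256 at the lowest, median and highest of the others, a ratio of 18.0. Actn3, the alpha-actinin of fast fibres, read 32791 against 855 to 3828, a ratio of 15.98, and Actn2, the alpha-actinin of all fibres, 251 against 12.6 to 39.2, a ratio of 10.8. Mybph read 3401 against 150 to 366, a ratio of 14.9. The skeletal actin Acta1 read 29201 against 3220 to 12731 and the cardiac actin Actc1 14128 against 1044 to 2382, ratios of 3.82 and 8.47. Desmin (Des), the intermediate filament of all muscle types, read 2084 against 213 to 600, a ratio of 5.39. The titin cap Tcap was the nearest to the others, at 358 against 41.0 to 278 and a ratio of 2.47.

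The genes that turn a nerve impulse into calcium release and take the calcium up again had a median ratio of 16.7, and all 7 were above each other array. Of the voltage sensor, the subunits Cacng1 and Cacna1s read 5917 and 7529 there, against highest values of 295 and 336 on the others, ratios of 47.2 and 31.4. The calcium release channel Ryr1 read 22658 against 288, 494 and 1011 at the lowest, median and highest of the others, a ratio of 42.9. The calcium store protein Casq1 read 25361 against 1030 to 2885, a ratio of 16.7. Chrna1, the acetylcholine receptor subunit of the endplate, read 271 against 6.37 to 34.9, a ratio of 15.2. The calcium pump of fast fibres, Atp2a1, read 37701 against 1909 to 8912, and the fast-fibre calcium buffer Pvalb 31300 against 3395 to 10513, ratios of 7.81 and 4.75.

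The energy genes had the highest median ratio of any role, 31.7, and all 6 were at least 10-fold up. The mitochondrial creatine kinase Ckmt2 read 12443 there against 70.8, 164 and 373 at the lowest, median and highest of the others, a ratio of 59.2. Pgam2, the muscle phosphoglycerate mutase, read 17562 against 84.4 to 920, a ratio of 40.9. The cytosolic creatine kinase Ckm read 14551 against 161 to 903 and the oxygen store myoglobin (Mb) 10664 against 132 to 908, ratios of 32.7 and 30.7. Pygm, which releases glucose from muscle glycogen, read 29141 against 464 to 3123, and the muscle enolase Eno3 27255 against 1501 to 3760, ratios of 20.8 and 11.4.

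Of the transcription factors that set the muscle fate, only Myf6, the one most abundant in adult fibres, had a ratio like that of the other roles. It read 1527 there against 22.8, 81.6 and 181 at the lowest, median and highest of the others, 16.6 times their mean. Myod1 read 923 against 202 to 641, a ratio of 2.01. Myog, the factor of differentiating myoblasts, read 345 within the 72.8 to 402 of the others, and its highest value was that of male vehicle replicate 1.

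**Figure D2:**
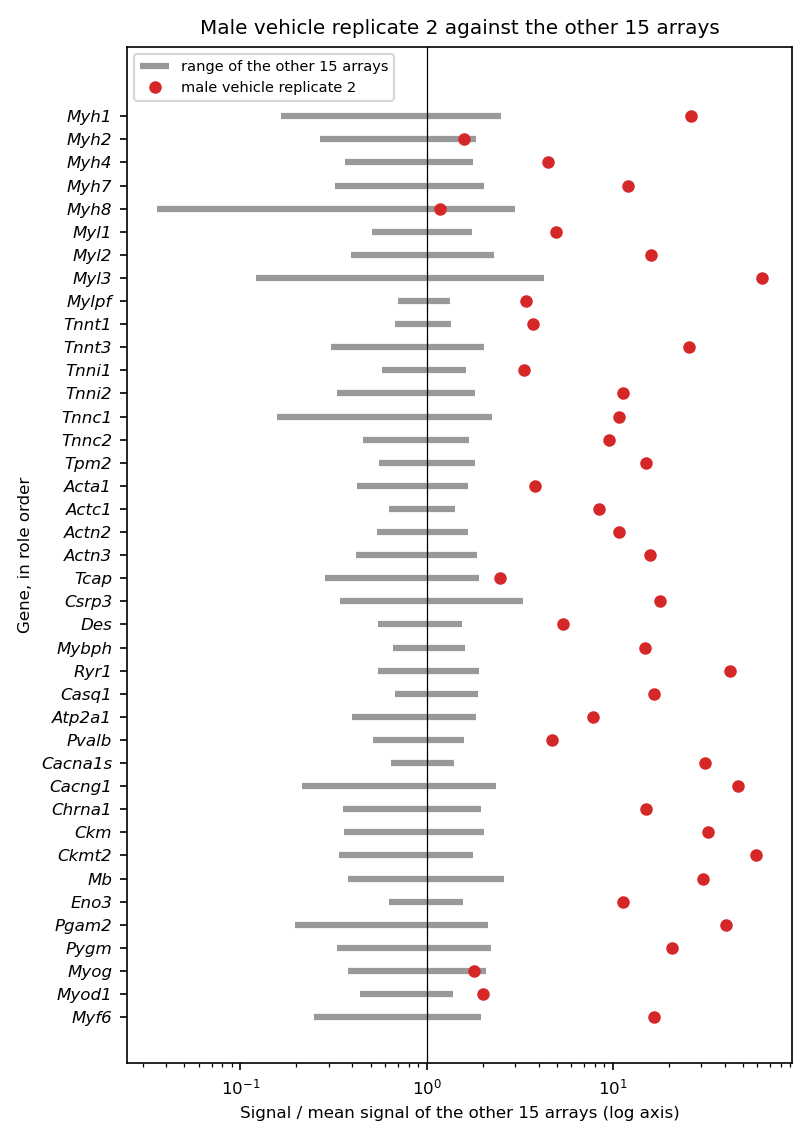
Signal of each of the 40 genes on male vehicle replicate 2 (red points) and the range of the other 15 arrays (grey bars), both divided by the mean of those 15, on a log axis. The points of 37 genes lie to the right of their bars, up to 63.4 for Myl3, and those of Myh2, Myh8 and Myog lie within them.

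In 5 muscle genes (Myh4, Myl1, Acta1, Atp2a1 and Pvalb) the mean of the other 15 arrays was at least 3000. These 5 read 29201 to 37701 on male vehicle replicate 2, where the highest signal of any probe set was 38999. Their ratios lay between 3.82 and 7.81. The other 32 of the 37 genes at least 2-fold up had ratios between 2.01 and 63.4 with a median of 15.6, and those of Myod1, Tcap, Tnni1, Mylpf and Tnnt1 were under all 5. The second probe sets gave other ratios for the same genes. Of 15 further probe sets on 14 genes, 8 were at least 2-fold up and 7 were higher than on each other array. Pvalb was 46.9 times the mean of the others by its second probe set, Mylpf 33.5 times, Actc1 38.2 times and Tnnt1 19.0 times. Further probe sets of Myh4, Myh7, Tnnc2, Tpm2, Ckm, Ckmt2 and Mb lay within the other arrays and gave ratios between 0.60 and 1.70, all at signals at or under 242 on average. Another further probe set of Ckmt2 gave 42.4 times and was above each other array. That of Myh8 gave 4.73 times, at 117 within the 3.27 to 125 of the others. The probe sets used for Myh7, Tnnc2, Actc1 and Ckm carry the manufacturer's suffix for probes that may read several genes of a family, and that of Atp2a1 the one for shared sequence, so that near-identical copies may add to these 5 signals.

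The rest of that array was set beside these genes through lists of cell type markers. Of all 8251 genes, 24.6% were higher there than on each other array and 24.9% were lower than on each. Of 44 other skeletal muscle genes measured, 35 were higher there than on each other array, with a median ratio of 6.64. Fabp3, the fatty acid carrier of oxidative muscle, had a ratio of 62.5, and Myom1, which links thick filaments at the M band, one of 56.1. At the other end, 2 of the 44 were at least 2-fold lower and 1 was lower than on each other array, with a lowest ratio of 0.13. Satellite cell genes were mixed, with a median of 0.91, 2 of 7 higher than elsewhere (Cdh15 at 10.2 and Myf5 at 9.40) and 2 lower. Of the cardiac genes 1 of 8 was higher, with a median of 1.30. The smooth muscle list had a median of 0.51 with 1 of 7 higher, but its median was 1.14 against the other 7 male arrays alone and 1.10 against male vehicle replicate 1. All 12 adipocyte genes were lower on this array than on each other one, with a median ratio of 0.13, and all 15 macrophage genes were too, with a median of 0.19. Adiponectin (Adipoq), a defining adipocyte gene, read 1946 there against 19206 to 31645 on the other 15 arrays. How much of the labelled tissue that array held was not tested. Of the brown fat list 4 of 7 were higher than on each other array and 1 was lower, with a median ratio of 1.74. Its highest ratio was 26.4, of Cox7a1, which muscle mitochondria also carry, and its lowest 0.09, of Ucp1. None of 8 nerve genes and none of 5 pancreas genes was higher than elsewhere, against 2 of 9 endothelial and 1 of 8 kidney genes.

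The time course was compared among the other 15 arrays, by limma's moderated test on log2(signal + 16) with sex and time as factors. Of the 40 genes, 31 passed the lower limit on the mean level over these arrays. Myh2, Myh8, Myl3, Tnnc1, Actn2, Csrp3, Cacng1, Chrna1 and Myf6 did not and were not tested. None of the 31 changed in any of the 9 DHT comparisons or in the sex difference of the DHT response at an adjusted p under 0.05, where few genes of the whole array did. Over all times against vehicle 0.088% of the 5681 genes tested were called, at 1 h 0%, at 3 h 0.0176%, at 6 h 0.088%, at 12 h 0.0704%, at 18 h 0.0352% and at 24 h 0.0176%. Late against early DHT called 0.0352% and the F test over the 6 times 0.088%. All 6 time comparisons share the same 3 vehicle arrays, 1 of them male, so that their values are not independent of each other. The labels give the vehicle samples a time of 24 h, read here as time since vehicle injection. Comparisons at the other times thus differ from vehicle in that interval as well as in DHT.

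Over all times, 12 DHT arrays against 3 vehicle arrays, 15 of the 31 genes lay above 0 and 16 below, with a median log2 difference of -0.02, none with an unadjusted p under 0.05 (174 of the 5681 genes tested). The 3 smallest p-values were those of Tcap (0.48 ± 0.26 SE), Mb (-0.59 ± 0.35) and Mybph (-0.33 ± 0.22), all with an adjusted p of 0.998 by limma. Tcap read 221 on the male vehicle array and 45.9 and 54.2 on the female ones. After DHT it read 180, 278, 168, 124, 116 and 256 in males and 134, 168, 124, 41.0, 62.0 and 205 in females, in order of time. Its female vehicle arrays were thus below 5 of 6 female DHT arrays, while the male vehicle array lay within the male ones. Mb read 908 on the male vehicle array and 132 to 363 on the male DHT arrays, against 318 and 314 on the female vehicle arrays and 242 to 532 after DHT. The vehicle level of Mb was thus the highest in males and lay within the DHT levels in females.

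At 1 h, 27 of 31 genes lay above vehicle, with a median log2 difference of 0.37 (all genes tested, 0.04), and 1 had an unadjusted p under 0.05 (233 of the 5681 tested). Actc1 differed by 0.57 ± 0.26 (SE), Casq1 by 0.59 ± 0.28 and Myl2 by 0.85 ± 0.43, each with an adjusted p of 0.998 by limma. With male vehicle replicate 2 among the controls these 3 differences were -0.30, -0.39 and -0.30, so that their direction depended on that array. At 3 h, 13 genes were above vehicle and 18 below it, with Tcap at 1.06 ± 0.36, Tnni2 at -0.60 ± 0.33 and Tnnt1 at -0.40 ± 0.26 (adjusted p of 1.00 by limma for each). At 6 h, 20 lay above, with Mb at -0.91 ± 0.49, Tcap at 0.53 ± 0.36 and Myh4 at 0.43 ± 0.32 (adjusted p = 0.998 by limma). The Myh4 difference was -0.04 with all 16 arrays and -0.0009 without the female 6 h array.

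At 12 h, 22 of 31 genes were below vehicle with a median of -0.19. Tnni2 read 136 (male) and 69.4 (female) against vehicle values of 385, 203 and 150, a log2 difference of -1.16 ± 0.33 (SE) with an adjusted p of 0.557 by limma. Mybph and Mb followed at -0.54 ± 0.31 and -0.83 ± 0.49. At 18 h, 24 of 31 were below with a median of -0.39 (all genes tested, -0.02), and 6 had an unadjusted p under 0.05 (365 of the 5681 tested). Pygm was at -0.94 ± 0.32, Pgam2 at -1.17 ± 0.43 and Acta1 at -0.70 ± 0.28, with adjusted p of 0.659, 0.710 and 0.710 by limma. The female 18 h array was the lowest of all 15 in 13 of the 31 genes, and the male 18 h array in 1. At 24 h, 19 genes were above vehicle and 12 below, with a median of 0.11. The smallest p-values were those of Tcap (1.14 ± 0.36 SE), Mybph (-0.48 ± 0.31) and Actc1 (0.35 ± 0.26), with adjusted p of 0.998, 0.999 and 0.999 by limma. With 16 arrays the Actc1 difference was -0.51.

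Late against early DHT, 6 against 6 arrays, needs no vehicle array. There 26 of the 31 genes lay lower late, with a median log2 difference of -0.32 (all genes tested, -0.01), and 5 had an unadjusted p under 0.05 (399 of the 5681 tested). Pgam2 (-0.64 ± 0.27 SE), Casq1 (-0.42 ± 0.18) and Myh4 (-0.47 ± 0.20) had the smallest p-values, with adjusted p of 0.679, 0.681 and 0.692 by limma, so that none passed. In males Pgam2 read 920, 424 and 340 on the early arrays, then 400, 325 and 643 on the late ones. In females it read 525, 349 and 437 early and 185, 84.4 and 468 late. The early and late values overlapped in both sexes. In the F test Tcap, Pgam2 and Tnni2 had the smallest p-values, with an adjusted p of 0.989 by limma. The mean DHT response differed between the sexes by more than 0 in 30 of 31 muscle genes and in 2833 of the 5681 genes tested, with Mb at 2.04 ± 0.44 (SE), Ckm at 1.87 ± 0.46 and Pygm at 1.10 ± 0.36, female minus male. No gene of the array was called there (0% called, adjusted p = 1.00 by limma, 10 of the 31 and 164 of the 5681 with an unadjusted p under 0.05), and the male side of it rests on 1 vehicle array, male vehicle replicate 1, which held the highest value of the 15 arrays in 14 of the 31 genes.

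**Figure D3:**
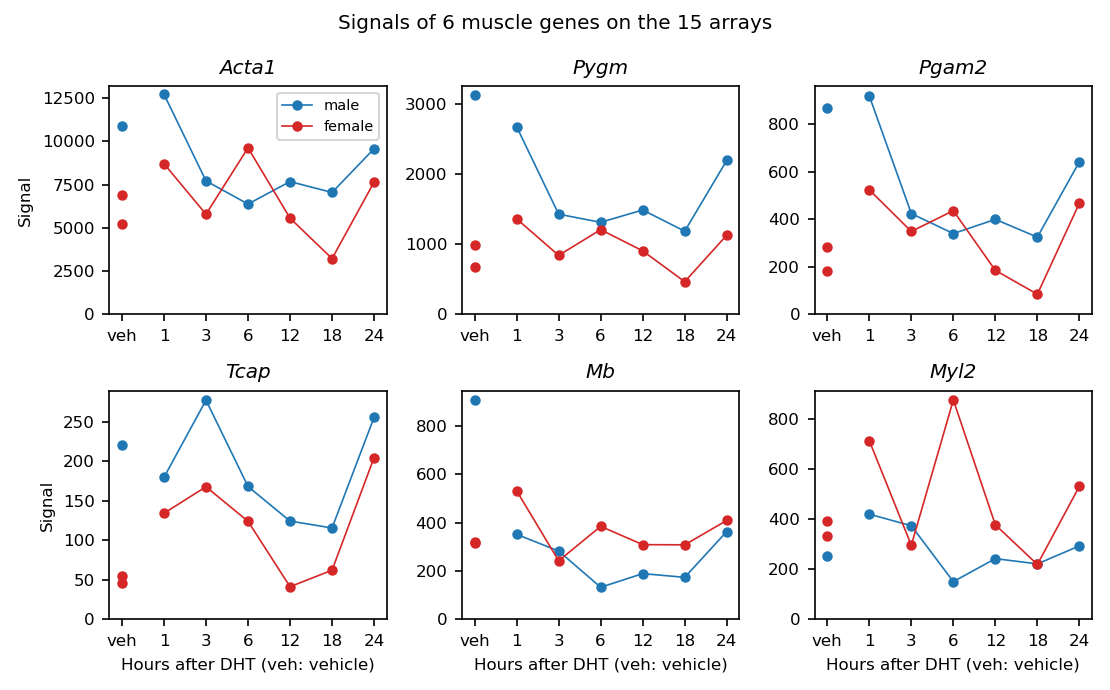
Signals of 6 skeletal muscle genes (1 panel each) on the 15 arrays, vehicle arrays at the left and DHT arrays by hours after injection, males in blue and females in red; each point is 1 array and each vertical axis starts at 0. Male vehicle and male 1 h arrays are the highest for Pygm and Pgam2, the female 18 h array is the lowest for Acta1, Pygm and Pgam2, and Myl2 is highest on the female 6 h array.

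The same few arrays were the highest or the lowest in many of these genes. Male vehicle replicate 1 was the highest of the 15 in 14 of the 31 genes, the male 1 h array in 8 and the female 6 h array in 5. The summed signal of the 40 genes was 84118 and 83749 on the male vehicle and male 1 h arrays, 65241 on the female 6 h array and 28256 on the female 18 h array. Single genes spread by between 19.0% (Mylpf) and 101% (Myl3) of their mean over the 15 arrays, as coefficient of variation.

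Of the 31 genes tested, 9 were lower in females (8 arrays) than in males (7 arrays) at an adjusted p under 0.05 and none was higher, where 16.7% of all genes tested were called, 7.76% lower and 8.92% higher in females. Pygm, Myh4, Pgam2, Tcap, Tnnt3, Pvalb, Actn3, Atp2a1 and Myl1 were the 9. Over all 31 genes the median log2 difference was -0.37, with 22 below 0, and over all genes tested it was 0.00. No muscle gene had every female array below every male one, as 2.83% of all genes tested had.

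Pygm read 1184, 1488 and 3123 at the lowest, median and highest of the male arrays and 464, 948 and 1361 in the females, a log2 difference of -1.004 ± 0.18 (SE) with an adjusted p of 0.00233 by limma. The sexes overlapped only between 1184 and 1361. Pgam2, the next glycolytic enzyme named, read 325 to 920 in males and 84.4 to 525 in females, a difference of -0.88 ± 0.24. Myh4 read 6648, 9314 and 12863 in males and 2635, 5244 and 8329 in females, a difference of -0.88 ± 0.18 with an adjusted p of 0.0058 by limma. Pvalb, with the second smallest p of the muscle genes, read 5863 to 10513 in males and 3395 to 6326 in females, a difference of -0.71 ± 0.13. Tcap differed by -0.85 ± 0.21, Tnnt3 by -0.84 ± 0.24, Actn3 by -0.65 ± 0.19, Atp2a1 by -0.59 ± 0.17 and Myl1 by -0.58 ± 0.18. Just outside the threshold, Eno3 differed by -0.50 ± 0.16 (adjusted p = 0.0517 by limma), Acta1 by -0.47 ± 0.16 (0.0649) and Ckm by -0.76 ± 0.27 (0.0769).

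The genes were also split into fast and slow fibre classes, which are those of textbooks and were set beside these values after they had been seen. Of 11 fast genes tested, 6 were lower in females and 10 had a negative difference, with a median of -0.58. All 4 slow genes tested had a positive difference, with a median of 0.42, and none was called. Myl2 read 150, 253 and 420 in males and 219, 386 and 878 in females, a difference of 0.67 ± 0.25 (SE) with an adjusted p of 0.0852 by limma. Tnni1 differed by 0.44 ± 0.18, Myh7 by 0.40 ± 0.26 and Tnnt1 by 0.32 ± 0.15. The one fast gene above 0 was Myh1, at 83.0, 233 and 877 in males and 219, 560 and 1268 in females, a difference of 1.02 ± 0.39 (adjusted p = 0.101 by limma). The difference between the fast and the slow class was not itself tested.

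**Figure D4:**
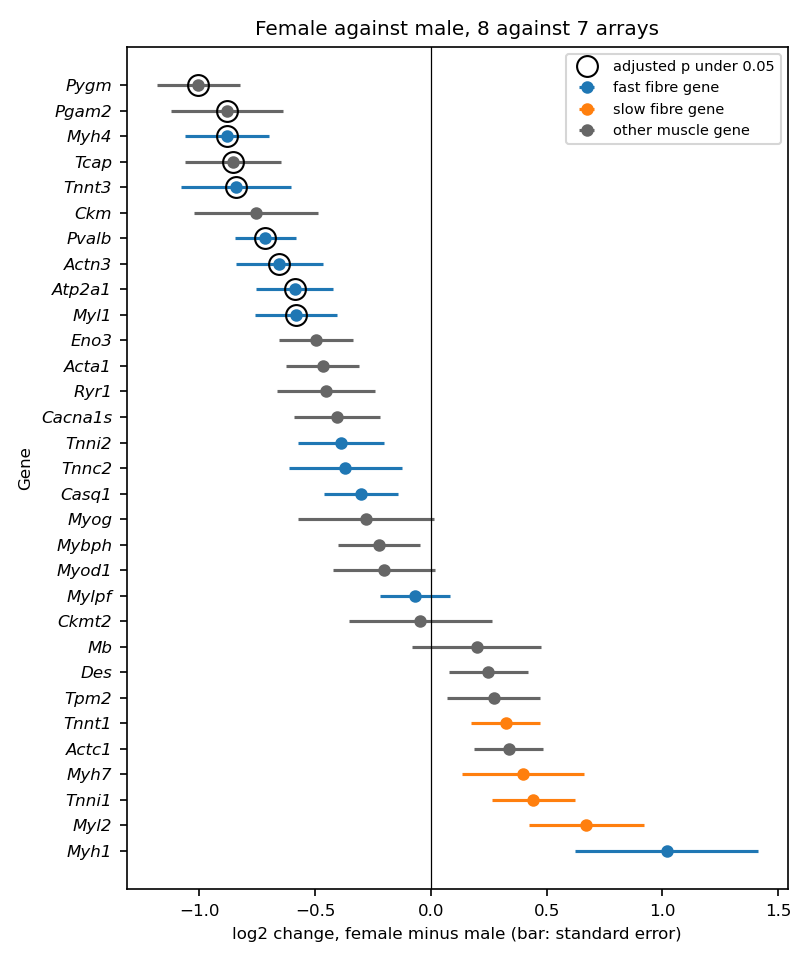
log2 difference of each of the 31 tested muscle genes, female minus male (8 and 7 arrays), with its standard error as the bar; blue marks fast-fibre genes, orange slow-fibre genes and grey the others, and black rings mark an adjusted p under 0.05. The 9 ringed genes all lie to the left, between -1.004 (Pygm) and -0.58 (Myl1), and the 4 slow genes all lie to the right of 0.

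The count of 9 rested on which arrays were used. The refits counted genes called in either direction. The count was 1 with all 16 arrays, Tcap. It was 5 without male vehicle replicate 1, 4 without either 1 h array or either 18 h array, and 15 without either 6 h array. Over the 15 fits that left out 1 array, Pygm, Pvalb, Myh4 and Tcap stayed past the threshold in all 15, Pgam2 and Tnnt3 in 8, Actn3 in 6, and Atp2a1 and Myl1 in 4. At each DHT time each sex had 1 array, so leaving out 1 also took its partner out of the sex comparison. Both fits at a DHT time therefore largely repeat each other, and the 15 are not separate checks. Markers of other cell types moved between the sexes as well. All 7 smooth muscle genes tested were higher in females, with summed signals of 9571 to 14580 in females and 4562 to 6870 in males, and 11 of 14 macrophage genes were. Of 12 adipocyte genes 6 were lower in females, as were all 3 brown fat genes, with Ucp1 at -2.45 ± 0.42 (SE). Of 33 other skeletal muscle genes tested, 3 were higher and 6 lower in females. On the female 12 h array the exocrine pancreas genes summed to 76930, against 1344 to 2811 on the 7 male arrays. Their median sum over the 15 arrays was 2227. Without the female 12 h array the count was 6, a fit that also took the male 12 h array out of the sex comparison. The part of these markers in the muscle gene result was not tested.

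Over the 15 arrays many of the muscle genes varied together. Each of the other 39 genes was set against Acta1, the skeletal actin, by the correlation of log2(signal + 16), with permutation p-values (100000 resamples, two-sided, smallest possible 1e-05) adjusted by Benjamini-Hochberg over the 39 relations. The correlation was positive for 31 of 39 with a median r of 0.52. By Pearson's r 16 relations passed an adjusted p of 0.05, all positive, and by Spearman's rho 20 did, the same 16 among them. The points share their arrays and their scaling to the whole array. Genes outside this list were not set against Acta1, so the share of all genes that would pass is not known.

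Atp2a1 followed Acta1 the most closely, with r = 0.987 and rho = 0.993 (permutation p = 1e-05, adjusted 5.57e-05). Its r was 0.977 within the 7 male arrays and 0.994 within the 8 female arrays, and 0.969 without the female 18 h and male 1 h arrays, the 2 farthest from the median of Acta1. Tnnt3 (r = 0.968, rho = 0.964) and Pgam2 (r = 0.961, rho = 0.929) came next, with the same permutation p and adjusted p for r. Within males their r was 0.965 and 0.977, within females 0.986 and 0.936, and without the 2 farthest arrays 0.927 and 0.911. In 10 genes r was above 0.7 in both sexes and without those arrays.

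In some genes the correlation with Acta1 was higher within each sex than over both. Myl2 had r = 0.367 and rho = 0.346 over the 15 arrays (permutation p = 0.179, adjusted 0.240), but 0.698 within males (exact permutation p = 0.0810) and 0.894 within females (exact permutation p = 0.0025). It was 0.249 without the 2 farthest arrays. Myh1 had r = 0.425 over all (rho = 0.464, permutation p = 0.115, adjusted 0.180), 0.967 within males and 0.940 within females (exact permutation p of 0.000397 and 0.000620), and 0.305 without the 2 farthest arrays. Desmin, which smooth muscle also carries, had a negative r of -0.546 (rho = -0.482, permutation p = 0.0365, adjusted 0.0745). Of the transcription factors, Myog and Myod1 had r of -0.144 and -0.163 (permutation p of 0.611 and 0.551). With Myl2 as the reference, a choice made after the data had been seen, 5 genes passed, Myh7 (r = 0.818), Tnni1 (0.799), Tnnc1 (0.765), Myh1 (0.755) and Tpm2 (0.739). Without the 2 arrays farthest from the median of Myl2, r was 0.752 for Myh7, 0.590 for Tnni1, 0.558 for Tnnc1, 0.569 for Myh1 and 0.480 for Tpm2.

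**Figure D5:**
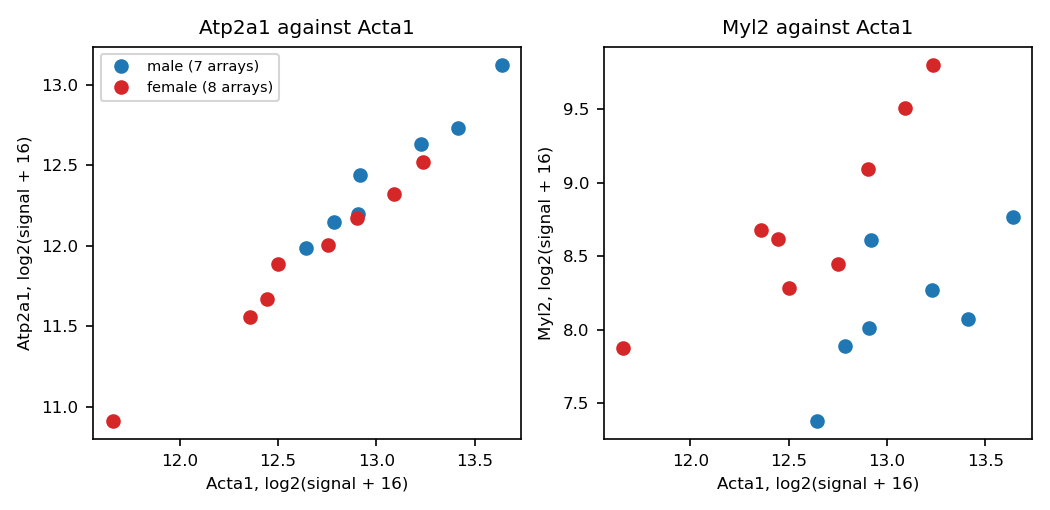
log2(signal + 16) of Atp2a1 (left) and of Myl2 (right) against that of Acta1, 1 point per array for the 7 male (blue) and 8 female (red) arrays. Atp2a1 rises with Acta1 along 1 line for both sexes (r = 0.987), while Myl2 rises within each sex at different levels, with r = 0.698 in males, 0.894 in females and 0.367 over both.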

How the data were processed

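Retroperitoneal fat RNA was read on 16 single-colour Affymetrix mouse arrays of 12488 probe sets. The deposited values are linear signal intensities, which the authors computed using MAS5 (per the submitters' processing notes, without a version). Each array had a trimmed mean signal of 500 (2% off each end). Probe sets were named through GEO's platform table: 10855 had 1 symbol, 396 several and 1237 none, and control probe sets were left out. Groups came from the sample titles; replicate numbers were given in accession order.

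Signals were analysed as log2(signal + 16). Genes over the 40th percentile of mean level in the 15 arrays other than male vehicle replicate 2 (signal 115.53) were tested, 5681 of 8251, with limma 3.58.1 in R 4.3.3 (lmFit, eBayes with trend, two-sided, Benjamini-Hochberg over all genes tested, threshold 0.05). Scripts were tested on simulated data. Precision is limited by how many arrays there are, and detection calls went unused.

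The members, gene lists and tests were chosen with earlier results of these data known. Every muscle gene is given by its level. In each tested comparison the genes past the threshold are named, or else the 3 with the smallest p. Alternatives covered the arrays used, pseudocount, filter, normalization, probe set choice, a control covariate, time grouping and each array left out.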

Additional observations from a re-analysis of the deposited data

Results flagged for a closer look

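Male vehicle replicate 2 was singled out beforehand as high in these genes, so that its place among the 4 vehicle arrays is a description and no test. Its gap to the nearest of the other 3, divided by the whole range, was above Dixon's critical value of 0.829 in 6 muscle genes: Actc1 (0.937), Tpm2 (0.904), Myl2 (0.865), Tnnt1 (0.852), Actn2 (0.838) and Chrna1 (0.831). Of all 8251 genes, 10% passed that mark in the vehicle arrays.

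Among the 6 arrays at 1, 3 and 6 h (critical value 0.625), Cacng1 was low on the female 3 h array (0.751), Myh2 was high on the female 6 h array (0.706) and Tnnc1 was low on the male 6 h array (0.673). There 8.45% of all genes passed. These genes were under the lower limit for testing. No muscle gene passed among the 12, 18 and 24 h arrays, where 6.86% of all genes did. Chance passes about 1 in 20 groups.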

How the results depend on the processing

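No muscle gene passed in any DHT comparison under any alternative run. The count called between the sexes was 9, all lower in females. Counted in either direction, it was 1 with all 16 arrays and 4 to 15 with 1 array left out. The median ratio on male vehicle replicate 2, 11.8, was 12.2 with median scaling, 11.1 with the mean of a gene's probe sets, 9.33 against male vehicle replicate 1 alone, 13.2 against the other 7 males and 14.7 against the median of the 15. With quantile normalization that median ratio lay within 9.33 to 14.7. Of the genes tied to Acta1, 16 passed, and 5 with Myl2 as the reference, chosen after the data were seen. With Acta1 the count was 22 with quantile normalization, 18 with median scaling and 16 with a pseudocount of 1. With all 16 arrays the direction turned for Actc1 (-0.30), Casq1 (-0.39) and Myl2 (-0.30) at 1 h, Myh4 at 6 h (-0.035) and Actc1 at 24 h (-0.51). It also turned for Mb over all times without male vehicle replicate 1 (0.15, with -0.87 to 0.15 over the arrays left out) and for Myh4 at 6 h without the female 6 h array (-0.0009, with -0.0009 to 0.83). The causes were not tested. Over all genes, 948 differed between the sexes, and 343 with 16 arrays. The sex difference of the DHT response could not be fitted without male vehicle replicate 1. No paired analysis was possible because the numbering of replicates follows accession order and the labels carry none that pair arrays. Signals near background and the 3 vehicle arrays limit what could be seen.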
